A study of Mus musculus with 6 samples.

Results

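Matrix metalloproteinases are the subject here, described through 10 genes chosen for the breakdown of elastin and collagen in aortic aneurysm: Mmp2, Mmp3, Mmp9, Mmp10, Mmp11, Mmp12, Mmp13, Mmp14, Mmp15 and Mmp19. All 10 were found by symbol among the 44792 genes of the deposited count table. Primary vascular smooth muscle cells, which form the contractile layer of the artery wall, were taken from C57BL/6 mice. One group came from mice with a smooth muscle knockout of Ncor1 (genotype Ncor1-/-, 3 libraries) and the other from wild type littermate controls (3 libraries). The design text has the isolated cells exposed to 4-hydroxytamoxifen, which sets off the deletion, in a sentence that covers both groups. The Cre driver, the artery, the age of the mice and the dose and duration of the drug are not stated in the labels. The text names 3 mice per group and also 3 technical replicates per group, so the p-values measure the spread between libraries, which may be technical only.

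Metalloproteinases are zinc-dependent proteases that are made as inactive proenzymes, and most are secreted while a few are anchored in the cell membrane. They are switched on when other proteases remove the propeptide, and they are held back by the tissue inhibitors of metalloproteinases (TIMPs). In the artery wall they are known for turnover of the elastic lamellae and of fibrillar collagen. Only transcripts were measured here, not proenzyme, active enzyme or activity.

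Library totals were 7125538 to 9579490 counts, and 3 counts, taken as the detection limit of a library, equal 0.298 to 0.439 CPM (counts scaled to library size with edgeR's TMM factors). The deleted gene, Ncor1, was at 99.3, 93.7 and 94.4 CPM in knockout and 213, 223 and 230.3 CPM in control libraries, and averaged 95.8 ± 3.07 CPM in knockout and 222 ± 8.79 CPM in control cells (SD, n = 3 each). The groups differed across the whole transcriptome. By edgeR's quasi-likelihood test with a Benjamini-Hochberg adjusted p under 0.05, the knockout had 3512 of 13323 tested genes (26.4%) called higher and 3492 (26.2%) called lower, or 52.6% in all. With library totals alone, 68.8% of calls were higher, against 50.1% on the TMM scale, and the median log2 fold change was 0.13, against -0.00. All fold changes are log2, knockout over control, on the TMM scale, and SE is their standard error.

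The family divided into a small group of low-expressed genes that rose steeply and a group of mostly higher-expressed genes that fell by less. Of the 10 members, 9 had any count and 8 passed the filter on low counts. Among those 8, Mmp12, Mmp13 and Mmp3 were called higher in the knockout, and Mmp14, Mmp2, Mmp11 and Mmp19 were called lower. Mmp15 did not pass the test. Mmp9 had too few counts to be tested, and Mmp10 had 0 counts in all 6 libraries, which allows up to 0.298 to 0.439 CPM per library. The 7 calls stand beside the 52.6% called among all tested genes. In the same 7 members knockout and control libraries did not overlap, as in 57.8% of all tested genes. The median log2 fold change of the 8 was -0.45, beside -0.00 over all tested genes. The members that passed the filter are not a sample of the family, since the 3 that rose passed it through the knockout libraries.

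**Figure D1:**
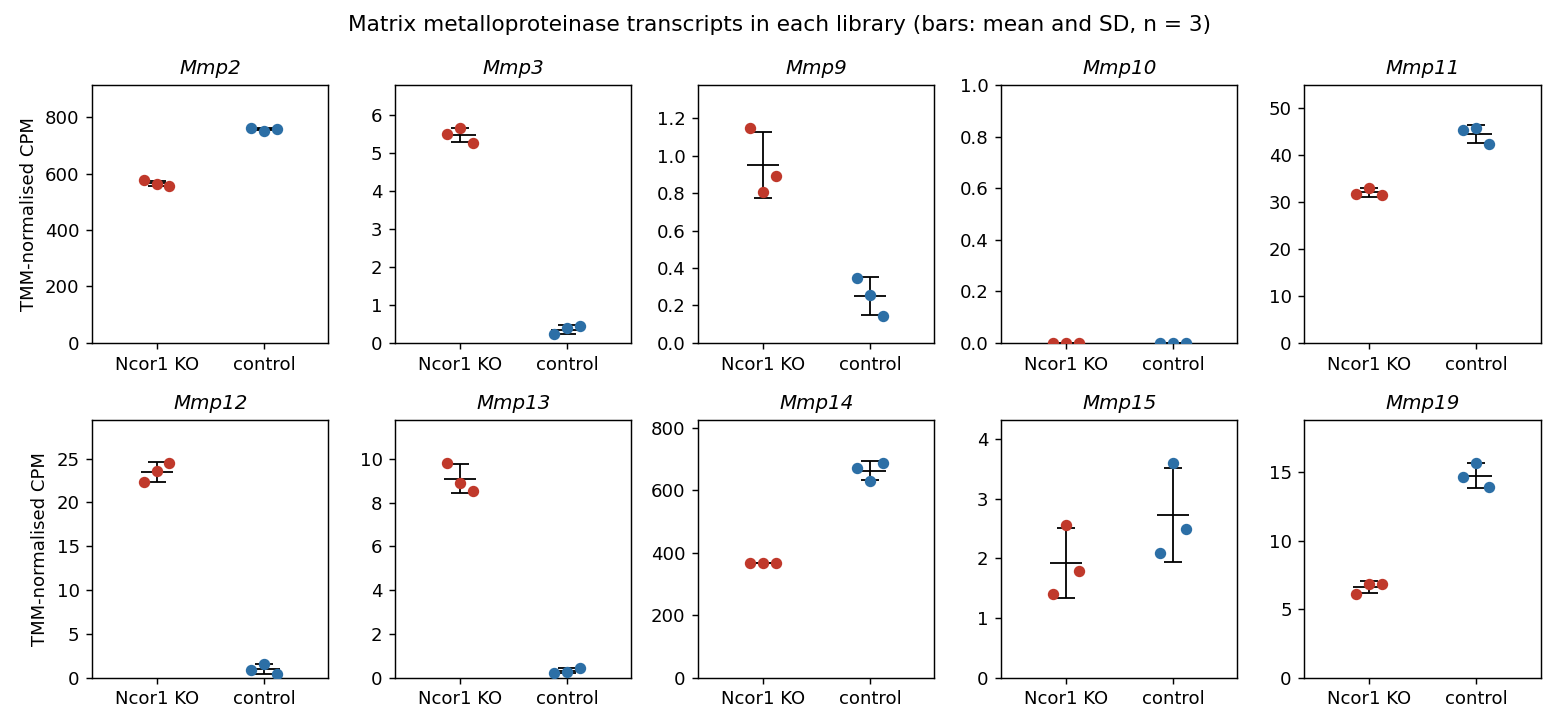
TMM-normalised CPM of each of the 10 metalloproteinase genes in each library, Ncor1 knockout left and control right, with points for libraries and bars for the mean and SD (n = 3); each panel has its own axis from 0. Mmp3, Mmp12 and Mmp13 sit near 0 in control cells and between 5.27 and 24.5 CPM in knockout cells, Mmp2, Mmp11, Mmp14 and Mmp19 are lower in every knockout library, Mmp15 overlaps between groups and Mmp10 is at 0.

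Macrophage elastase, Mmp12, degrades elastin and is named for the cell in which it was first described. It had 175, 175 and 247 counts in the 3 knockout libraries, against 8, 12 and 3 in the control libraries. On the scaled axis these are 22.3, 23.6 and 24.5 CPM in knockout and 0.931, 1.54 and 0.439 CPM in control cells. Every knockout library was above every control library. Its log2 fold change was 4.55 (SE 0.2, adjusted p = 1.3e-29), and the ratio of summed counts was 23.8 with an exact 95% interval of 15.7 to 37.8, which covers counting error only. By size of increase Mmp12 ranked 14 of the 13323 tested genes.

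Collagenase 3, Mmp13, is the main interstitial collagenase of rodents and cuts the triple helix of fibrillar collagen. Its counts were 77, 66 and 86 in knockout and 2, 2 and 3 in control libraries, or 9.83, 8.89 and 8.55 CPM in knockout against 0.233, 0.257 and 0.439 CPM in control libraries. All control libraries were at or under the 3-count limit, so its control level is poorly determined. The log2 fold change was 4.84 (SE 0.318, adjusted p = 5.0e-21), rank 11 by size of increase, and the ratio of summed counts was 29.97 (95% interval 14.3 to 75.4).

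Stromelysin-1, Mmp3, cuts proteoglycans and other matrix proteins and activates several other pro-metalloproteinases. It had 43, 42 and 53 counts in knockout and 2, 3 and 3 in control libraries, which are 5.49, 5.65 and 5.27 CPM in knockout against 0.233, 0.386 and 0.439 CPM in control libraries. The groups were again well apart, with the control libraries at or under the 3-count limit. The log2 fold change was 3.92 (SE 0.352, adjusted p = 3.28e-15), rank 43, and the ratio of summed counts was 15.8 (95% interval 7.80 to 37.3). Stromelysin-2, Mmp10, its closest relative among the members, had no count in either group. The sources used here do not say how reads that fit both were counted.

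These 3 increases depended in size, not in direction or call, on the scale. On the log2(FPKM + 1) scale, which understates changes of low genes, they were 2.64 for Mmp12, 2.03 for Mmp13 and 1.82 for Mmp3. Leaving out each library in turn gave 4.25 to 5.02 for Mmp12, 4.66 to 5.13 for Mmp13 and 3.68 to 4.09 for Mmp3.

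Macrophage markers moved with these genes. Of the 16 markers listed, 15 were in the table and tested. By edgeR 14 were called higher and 0 lower in the knockout, beside 26.4% higher and 26.2% lower of all tested genes. Cd14 did not pass (adjusted p = 0.0906, and 0.035 without control replicate 1, lower). An unadjusted p under 0.05, DESeq2 and limma-voom each gave 14 higher and 0 lower too. Their median log2 fold change was 3.57, and none of the 15 was at 0 in all libraries. Their summed level was 667 to 723 CPM in knockout and 55.9 to 75.7 CPM in control libraries. The most abundant were lysozyme, Lyz2 (279 ± 22.2 CPM in knockout, 31.7 ± 9.26 CPM in control cells), the pore-forming protein gene Mpeg1 (92.0 ± 2.74 CPM in knockout, 7.34 ± 1.62 CPM in control cells) and complement C1qc (61.2 ± 2.27 CPM in knockout, 4.89 ± 0.405 CPM in control cells). The part of these cells in the rise of Mmp12, Mmp13 and Mmp3 was not tested. In bulk RNA, more cells of a type and more RNA per cell cannot be told apart.

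Set against the summed FPKM of the macrophage markers within each library, Mmp12 came to 1.22, 1.23 and 1.21% in knockout and 0.607, 0.680 and 0.219% in control libraries. Mmp13 came to 0.723, 0.624 and 0.566% in knockout against 0.205, 0.153 and 0.295% in control libraries. Mmp3 came to 0.600, 0.590 and 0.518% in knockout against 0.304, 0.340 and 0.438% in control libraries. Lyz2 was the largest part of the marker sum, at 276 ± 23.1 FPKM in knockout and 28.6 ± 8.42 FPKM in control cells (log2 fold change 3.15). Single markers had log2 fold changes from -0.63 (Cd14) to 4.54 (Mrc1), so a share depends on which markers are summed. The control shares rest on 2 to 12 counts per library. Since these members were singled out for their rise, the shares are a description and were given no test.

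The 3 members called higher lie together on the chromosome. In RefSeq's annotation of assembly GRCm38.p6, 10 of the 23 metalloproteinase genes in the table lie side by side on mouse chromosome 9, in the order Mmp13, Mmp12, Mmp1b, Mmp3, Mmp1a, Mmp10, Mmp8, Mmp27, Mmp20 and Mmp7. Of these, 4 passed the filter, namely Mmp13, Mmp12, Mmp3 and Mmp27, and they were called higher in the knockout (background 26.4%). They passed it through the knockout libraries, with 2 to 12 counts per control library, so genes this low in control cells could enter the test only by being higher, and nothing is read from their number. The split by chromosome was not among the planned comparisons, and its counts are given as a description. On the other chromosomes 9 of 13 family genes passed the filter, and of these 0 were called higher and 7 lower by edgeR (background 26.2%). Gelatinase B, Mmp9, on chromosome 2, was not among the 9, and it was called higher without the low-count filter (log2 fold change 1.82, adjusted p = 0.0159). Of the 9, at an unadjusted p under 0.05, and by DESeq2 and limma-voom, 0 were higher as well, with 6 lower by DESeq2 and 7 by limma-voom. Within the cluster Mmp27, which is not among the 10, had 15, 19 and 21 counts in knockout and 2, 2 and 4 in control libraries (log2 fold change 2.60, SE 0.451, adjusted p = 1.32e-06). Mmp8, neutrophil collagenase, had 4 counts over the knockout and 0 over the control libraries, and Mmp1a, Mmp1b, Mmp7 and Mmp20 had none.

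**Figure D2:**
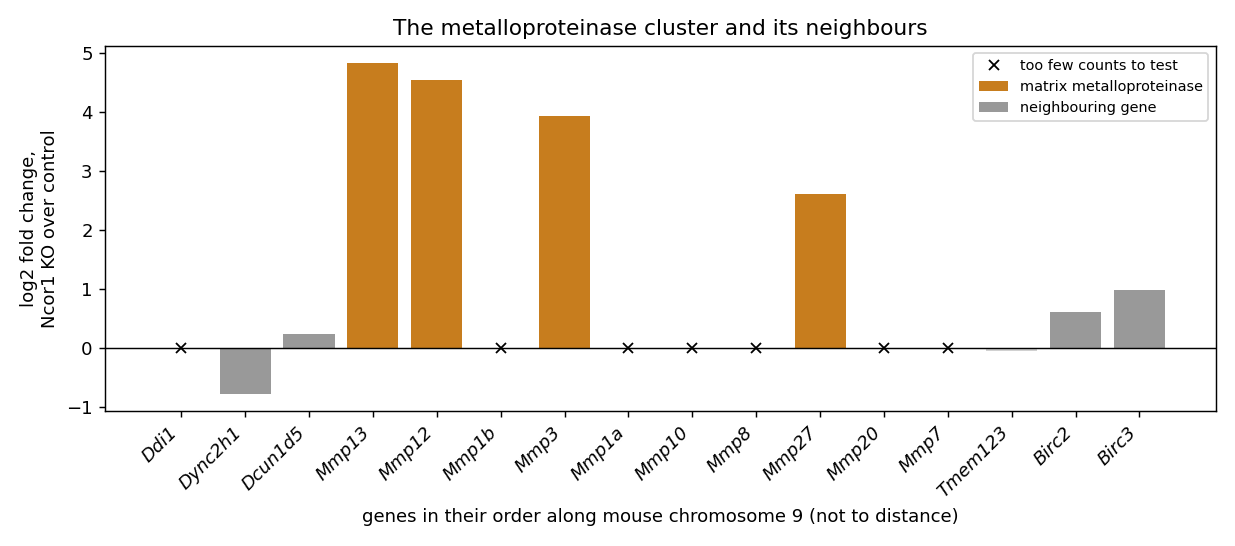
Log2 fold change, Ncor1 knockout over control, of the metalloproteinase genes of chromosome 9 and of the nearest protein-coding genes at either side, drawn in gene order and not to distance; crosses mark genes with too few counts to test. Bars for Mmp13, Mmp12, Mmp3 and Mmp27 reach 2.60 to 4.84, and those of the neighbours lie between -0.78 and 0.99.

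The genes flanking the cluster, chosen after their values were seen, did not move alike. On the Mmp13 side Dcun1d5 was higher by 0.23 and Dync2h1 lower (log2 fold change -0.78). On the Mmp7 side Tmem123 did not pass the test (adjusted p = 0.699), and the apoptosis inhibitors Birc2 and Birc3 were higher by 0.60 and 0.99.

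The promoters of the 4 members in the cluster are shown because 3 of these members rose together while Mmp10 was not detected. Those of the other cluster genes, among them Mmp27, were not searched. RefSeq's promoter windows (assembly GRCm38.p6, 250 bases before to 50 after each annotated start) matched 7 of the 10 members, with 8 windows, since Mmp12 has 2 annotated starts. No window was at hand for Mmp2, Mmp9 and Mmp19. On both strands 3 motifs were searched. The Ets motif AGGAAG was in the windows of Mmp3, Mmp13, Mmp14 and the upstream start of Mmp12, and in 35.4% of all windows. The TATA motif TATAAA was in those of Mmp3, Mmp10, Mmp13 and the downstream start of Mmp12, and in 13.6% of all windows. The remaining motif was TGANTCA, the core that AP-1 dimers of Fos and Jun proteins are known to bind. It was present in 4 of the 8 windows, from Mmp3, Mmp10, Mmp12 and Mmp13, and in 7.81% of all 32851 windows of that length. The first base of the match lay 46 bases before the start in Mmp3, 63 in Mmp10, 44 before the downstream start in Mmp12 and 35 in Mmp13. It was not found in the windows of Mmp11, Mmp14, Mmp15 or the upstream start of Mmp12. The 100 bases before each start are given 5′ to 3′ on the gene's strand with the match in capitals, all from the plus strand: Mmp13 at chr9:7272414-7272513, Mmp3 at chr9:7445722-7445821, Mmp12 at chr9:7347274-7347373 and chr9:7344297-7344396, Mmp10 at chr9:7502242-7502341, and Mmp14, a member that fell, at chr14:54431498-54431597.
Mmp13: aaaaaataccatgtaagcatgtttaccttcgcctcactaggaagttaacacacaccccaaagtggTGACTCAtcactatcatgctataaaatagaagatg
Mmp3: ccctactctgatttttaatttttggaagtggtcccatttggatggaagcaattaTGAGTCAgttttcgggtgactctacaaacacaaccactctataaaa
Mmp12, downstream start: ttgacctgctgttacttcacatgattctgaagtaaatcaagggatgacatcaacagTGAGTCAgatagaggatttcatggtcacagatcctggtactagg
Mmp12, upstream start: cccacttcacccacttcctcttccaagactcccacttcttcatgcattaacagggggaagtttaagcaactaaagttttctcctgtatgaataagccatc
Mmp10: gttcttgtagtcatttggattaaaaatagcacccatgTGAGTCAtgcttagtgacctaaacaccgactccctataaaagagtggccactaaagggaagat
Mmp14: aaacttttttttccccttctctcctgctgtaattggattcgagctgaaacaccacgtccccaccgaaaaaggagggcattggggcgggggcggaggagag

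The match in Mmp10, which had no counts, has the same letters as those in Mmp3 and Mmp12. A match describes the letters of the window, and the data at hand hold no binding measurement.

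Among the 7 AP-1 subunit genes, named as a group after their values were seen, 5 were called higher, 1 lower and 1, Fosb, had too few counts to test. Of all tested genes 26.4% were called higher and 26.2% lower. A part of AP-1 in the rise of the cluster genes was not tested. Fos was at 16.6 ± 0.546 CPM in knockout and 7.77 ± 0.752 CPM in control cells (log2 fold change 1.10, SE 0.132, adjusted p = 1.01e-10). Fosl1 was higher by 0.83, Fosl2 by 0.49 and Jun by 0.43. Junb had a log2 fold change of 0.25 (adjusted p = 0.0352), which was lost when any library but control replicate 2 was left out (adjusted p between 0.0572 and 0.162) and in the DESeq2 test (0.102). Jund was lower (-0.33).

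The AP-1 genes belong to a wider list of transcription regulators that are known to act on metalloproteinase promoters. Of its 18 tested genes 11 were higher, 4 lower (2 with library totals alone) and 3 did not pass, where 26.4% of all tested genes were called higher and 26.2% lower. The 4 with the smallest p all rose, namely Ets1 (log2 fold change 0.92, 176 ± 7.85 CPM in knockout and 92.4 ± 4.00 CPM in control cells), the Fos-related Fosl2, the Ets-family gene Elk3 (0.56) and the NF-kappa-B subunit gene Nfkb1 (0.48). Another list held 12 cytokines and receptors that are known to act on metalloproteinase expression, not all of them as inducers. Of these, 6 had enough counts to test, and 4 were called higher and 0 lower by edgeR. Unadjusted p-values under 0.05 and limma-voom gave the same counts, and DESeq2 gave 3 and 0. Macrophage colony-stimulating factor, Csf1, stood at 1516 ± 32.8 CPM in knockout and 789 ± 39.5 CPM in control cells (0.94, SE 0.0326). The chemokine Ccl2 was higher by 1.59 (SE 0.21) and Tgfb1 by 0.48. Il6 had a log2 fold change of 0.71 (adjusted p = 0.0329), lost in the DESeq2 test (0.163) and without knockout replicate 3, control replicate 1 or control replicate 3 (0.127 to 0.268). Among those with too few counts to test, Il1a had 36 counts over the knockout and 6 over the control libraries. Il1b had 2 over the knockout and 12 over the control libraries, and Tnf 13 over the knockout and 7 over the control libraries.

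The gelatinases degrade denatured collagen and basement membrane collagen, and elastin as well. Gelatinase A, Mmp2, the most abundant member in knockout cells, was at 576, 564 and 558 CPM in knockout and 762, 753 and 759 CPM in control libraries. Every knockout library was below every control library, with means of 566 ± 9.11 CPM in knockout and 758 ± 4.89 CPM in control cells. The log2 fold change was -0.42 (SE 0.0321, adjusted p = 3.53e-18). Gelatinase B, Mmp9, was near the limit of detection, with 9, 6 and 9 counts in knockout and 3, 2 and 1 in control libraries, or 1.15, 0.808 and 0.894 CPM in knockout against 0.349, 0.257 and 0.146 CPM in control libraries. Its ratio of summed counts was 3.66 (95% interval 1.46 to 10.96, counting error only), and its libraries did not overlap between groups. Neutrophils store gelatinase B, and 0 of 9 neutrophil markers reached enough counts to test. Their summed level was 0 to 0.135 CPM in knockout and 0 to 0.386 CPM in control libraries, and 5 of the 9, among them Mpo and Elane, were at 0 throughout.

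Mmp14 encodes a membrane-anchored collagenase that activates pro-gelatinase A at the cell surface together with Timp2. It stood at 368, 368 and 367 CPM in knockout libraries, against 670.4, 630.3 and 689 CPM in control libraries, a wide gap relative to either spread. The means were 368 ± 0.626 CPM in knockout and 663 ± 29.8 CPM in control cells. The log2 fold change was -0.85 (SE 0.0347, adjusted p = 2.58e-31). The other membrane-anchored member, Mmp15, was low in both groups, at 1.40, 2.56 and 1.79 CPM in knockout and 2.10, 3.60 and 2.49 CPM in control libraries. These overlapped, and its log2 fold change of -0.51 (SE 0.293) did not pass the test (adjusted p = 0.137). The interval of its ratio of summed counts, 0.469 to 1.03, does not show that the levels were alike.

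Stromelysin-3, Mmp11, is activated inside the cell by furin and is known from fibroblasts of remodelling tissue. It was at 31.5, 33.0 and 31.4 CPM in knockout and 45.3, 45.7 and 42.3 CPM in control libraries, all knockout libraries being lower (log2 fold change -0.48, SE 0.074, adjusted p = 1.05e-07). Mmp19, a secreted protease with basement membrane substrates, was at 6.13, 6.87 and 6.86 CPM in knockout and 14.7, 15.7 and 13.9 CPM in control libraries. Its knockout libraries were also lower without overlap (log2 fold change -1.15, SE 0.14, adjusted p = 1.35e-10). With Mmp2 and Mmp14 these make 4 members that fell, and each was also called lower in all 18 alternative fits.

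Markers of other cell types differed in the same libraries, where 26.4% of all tested genes were called higher and 26.2% lower. Of 8 smooth muscle markers 7 were lower and 1, Des, did not pass, with a summed level of 3884 to 4087 CPM in knockout and 11242 to 11439 CPM in control libraries. All 12 endothelial markers were higher, summing to 6132 to 6286 CPM in knockout and 1751 to 1821 CPM in control libraries. The most abundant of these lists were Acta2 (log2 fold change -1.31), Tagln (-1.81) and Cnn1 (-2.66) for smooth muscle, and Cdh5 (1.61), Pecam1 (1.59) and Emcn (1.93) for endothelium. Of 5 tested fibroblast markers 3 were higher and 2 lower. Cd34 (1.78), which endothelial cells also express, Dcn (3.62) and Ly6a (0.50) were higher, and Col14a1 (-1.32) and Pdgfra (-1.29) were lower. The summed level of the 9 listed was 1127 to 1187 CPM in knockout and 352 to 380.3 CPM in control libraries. Cd34 was the largest part of it, at 766 ± 30.9 CPM in knockout and 223 ± 12.7 CPM in control cells. Dpt had 0 counts over the knockout and 1 over the control libraries. Among the smooth muscle markers the largest fall was that of Myh11 (log2 fold change -3.35). Transcripts of smooth muscle markers were thus present in both groups, beside markers of other cells. Their part in the lower levels of Mmp2, Mmp11, Mmp14 and Mmp19 was not tested.

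**Figure D3:**
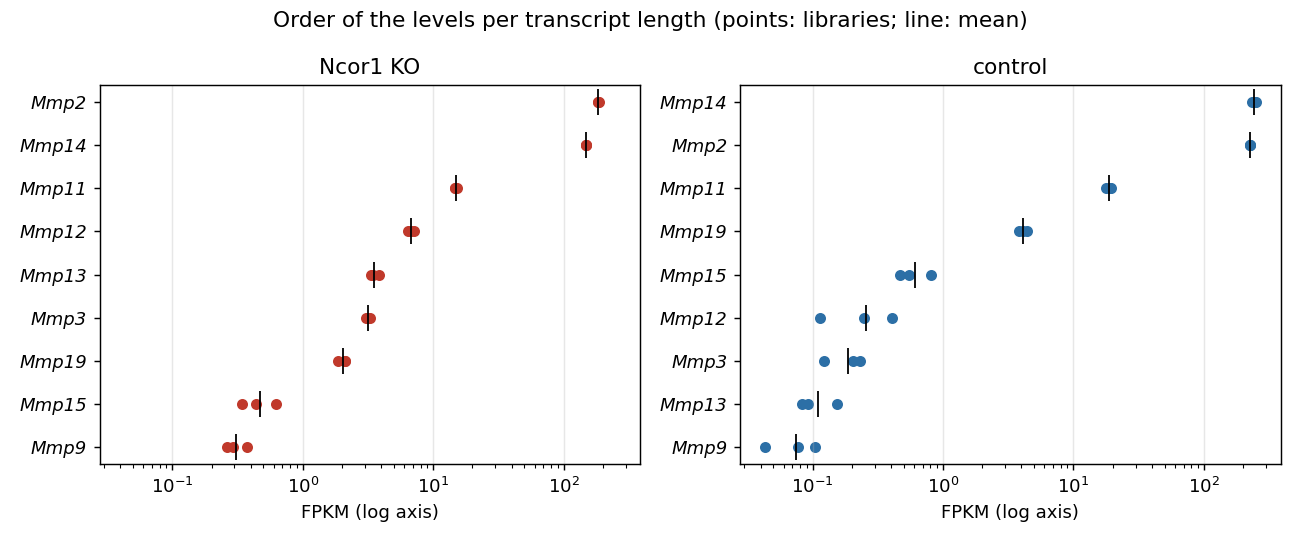
FPKM of the 9 detected members in each library on a log axis, ordered by the group mean, knockout at the left and control at the right (points: libraries; line: mean of 3). Mmp2, Mmp14 and Mmp11 lead in both groups, and Mmp12, Mmp13 and Mmp3 stand above Mmp19 in knockout but below Mmp15 in control cells.

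Levels of different members were compared per gene length, as FPKM (fragments scaled to gene length and library total by the authors). In knockout cells Mmp2 led with 185 ± 2.31 FPKM and Mmp14 followed with 148 ± 0.541 FPKM. In control cells Mmp14 led with 243 ± 9.44 FPKM and Mmp2 followed with 225 ± 1.37 FPKM. In each group the ranges of the pair did not overlap, so their order was opposite. The FPKM ratio of Mmp14 to Mmp2 was 0.789, 0.803 and 0.812 in knockout against 1.08, 1.03 and 1.12 in control libraries. The exact two-sided permutation p was 0.1, the smallest that 3 against 3 allows, and 0.1 after adjustment over the 4 ratios tested here and below. Ratios without overlap always give this p, so it adds nothing to the order above. Mmp11 came next in both, with 14.9 ± 0.378 FPKM in knockout and 18.8 ± 0.915 FPKM in control cells.

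Below these the order changed. In knockout cells Mmp12 (6.80 ± 0.348 FPKM), Mmp13 (3.55 ± 0.247), Mmp3 (3.17 ± 0.1) and Mmp19 (2.03 ± 0.135) followed, each above the next in every library. Mmp15 (0.468 FPKM) and Mmp9 (0.309) closed the list and overlapped. In control cells Mmp19 (4.12 ± 0.28 FPKM) and Mmp15 (0.608 ± 0.177) came next. Mmp12 (0.257), Mmp3 (0.186), Mmp13 (0.110) and Mmp9 (0.0745) lay below them, and each overlapped with the next.

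Despite the steep changes of low genes, the summed level was set by Mmp2 and Mmp14. They made up 91.2 to 91.6% of the members' FPKM sum in knockout and 94.7 to 95.4% in control libraries. Mmp3, Mmp12 and Mmp13 together were 3.68 to 3.74% of the sum in knockout and 0.091 to 0.146% in control libraries. The sum over the 10 genes was 364 ± 1.68 FPKM in knockout and 493 ± 8.26 FPKM in control cells, without overlap. Their share of all counts was 0.106% in knockout and 0.139 to 0.143% in control libraries.

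Of 7 listed inhibitors 5 were tested, with 1 higher, 3 lower and 1 not called (all tested genes: 26.4% higher, 26.2% lower). Timp3, which is bound to the matrix, averaged 815 ± 25.9 CPM in knockout and 2551 ± 7.75 CPM in control cells (log2 fold change -1.65, SE 0.0309). Timp2, which also takes part in the activation of pro-gelatinase A, averaged 1465 ± 43.2 CPM in knockout and 2216 ± 14.3 CPM in control cells (-0.60, SE 0.0299). Reck, a membrane-anchored inhibitor, was at 125 ± 2.57 CPM in knockout and 192 ± 5.52 CPM in control cells (-0.63). Timp1 averaged 418 ± 4.42 CPM in knockout and 403 ± 9.76 CPM in control cells and did not pass the test (0.05, adjusted p = 0.188), but was called higher with library totals alone (0.19). The serine protease inhibitor Tfpi2 was higher (3.05, SE 0.329), with 121 counts over the knockout and 13 over the control libraries. Timp4 had 0 counts and A2m 2.

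Summed FPKM of Timp1 to Timp4 was 1095 ± 7.68 in knockout and 1534 ± 20.2 in control cells, so the sums of the TIMPs and of the members were both lower. The FPKM sum of the 10 members over that of Timp1 to Timp4 was 0.335, 0.329 and 0.333 in knockout and 0.327, 0.310 and 0.327 in control libraries. These groups did not overlap but lay close together. For single pairs the ratios went both ways. Mmp2 over Timp2 was 0.448, 0.422 and 0.441 in knockout against 0.389, 0.382 and 0.390 in control libraries, and Mmp14 over Timp2 was 0.354, 0.339 and 0.358 in knockout against 0.422, 0.394 and 0.436 in control libraries. The exact two-sided permutation p was 0.1 for each, the smallest possible with 3 against 3 and the value that any ratio without overlap gives.

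**Figure D4:**
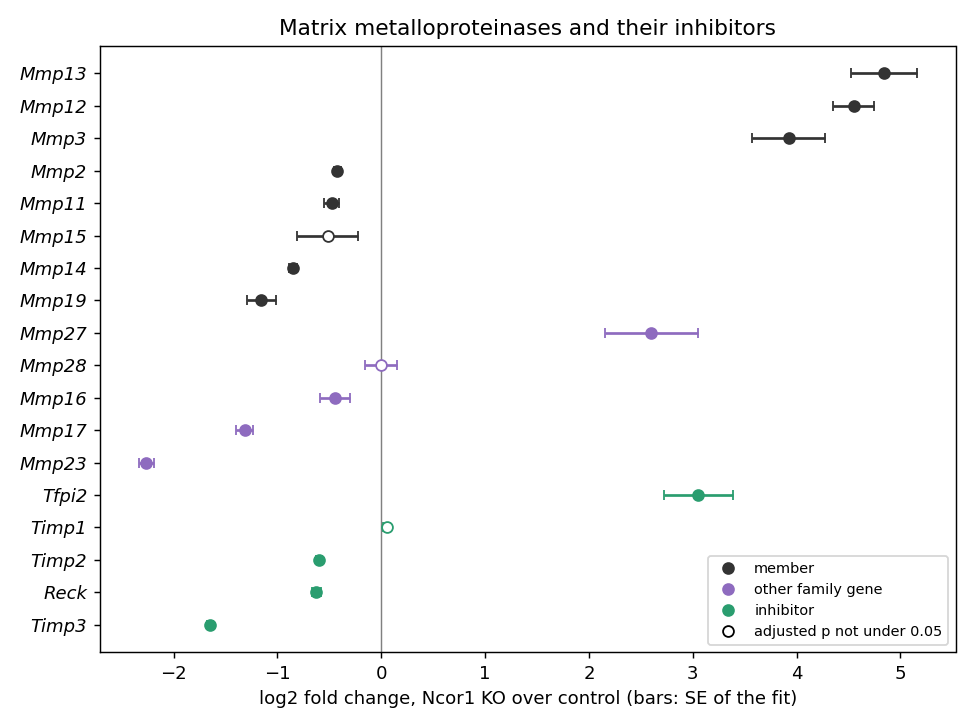
Log2 fold changes, Ncor1 knockout over control, with the SE of the fit, of the 8 tested members, the 5 tested other metalloproteinases and the 5 tested inhibitors; open circles did not pass an adjusted p of 0.05. Mmp13, Mmp12, Mmp3, Mmp27 and Tfpi2 lie at 2.60 or above, and the other called genes at -0.42 or below.

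Of the 13 metalloproteinase genes outside the 10, 8 had any count and 5 were tested, with 1 higher (Mmp27), 3 lower and 1 not called. Over all tested genes 26.4% were higher and 26.2% lower. Mmp23 averaged 18.2 ± 1.05 CPM in knockout and 87.2 ± 5.08 CPM in control cells (log2 fold change -2.26, SE 0.0741). Mmp17, whose enzyme is anchored by a glycolipid and is known from vascular smooth muscle, averaged 20.8 ± 2.01 CPM in knockout and 52.0 ± 3.76 CPM in control cells (-1.32, SE 0.0815). Mmp16, another membrane-anchored protease, averaged 8.46 ± 1.26 CPM in knockout and 11.6 ± 0.797 CPM in control cells (-0.44, adjusted p = 0.00674). Its call was lost with library totals alone (adjusted p = 0.0566), in the DESeq2 test (0.0524), in all 3 fits of FPKM (0.116 to 0.214) and without knockout replicate 1 (0.0623). Mmp28 stood at 8.47 ± 1.63 CPM in knockout and 8.42 ± 0.474 CPM in control cells and did not pass (adjusted p = 0.988). Mmp24 had 24 counts over the knockout and 13 over the control libraries, too few to test.

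Genes that activate or clear the proenzymes went both ways, 6 of 12 tested higher and 5 lower, with a median of 0.08 (all tested genes: 26.4% higher, 26.2% lower). The serine protease inhibitor gene Serpine2 averaged 108 ± 4.45 CPM in knockout and 191 ± 11.2 CPM in control cells (log2 fold change -0.82, SE 0.046). Of the listed convertases of the furin type, which cut the propeptides of some metalloproteinases, Pcsk6 (0.92), Pcsk7 (0.29) and Furin (0.17) were higher. The libraries of the 2 groups overlapped for Furin. Pcsk5 was lower (-1.86). Plg, the plasminogen gene, had 0 counts.

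Genes for matrix substrates were mostly lower, 12 of 17 tested, with 3 higher and a median of -0.97 (all tested genes: 26.2% lower, 26.4% higher). The 4 with the smallest p were collagen III, Col3a1 (log2 fold change -3.68), elastin, Eln (-2.96), collagen I alpha 2, Col1a2 (-2.27), and the elastic fibre protein fibulin-5, Fbln5 (-2.60). The fall of elastin and of these collagens in transcript stood beside changes of proteases in both directions. Transcripts of Mmp12, which cuts elastin, and of Mmp13, which cuts fibrillar collagen, rose. Those of the far more abundant Mmp2 (-0.42), which also cuts elastin, and of the collagenase Mmp14 (-0.85) fell. Any link between protease and substrate transcripts was not tested. The 3 higher were decorin, Dcn, a proteoglycan of collagen fibrils (3.62), and the basement membrane genes Lamb1 (0.30) and Col4a1 (0.10, adjusted p = 0.0129, lost without knockout replicate 1 or control replicate 3, adjusted p = 0.0611 and 0.0914). Of the other basement membrane genes listed, Lamc1 was lower (-0.25, adjusted p = 7.9e-09, lost in the 3 fits of FPKM, 0.0609 to 0.0941), and Col4a2 did not pass the test (0.00, adjusted p = 0.991), but was called higher with library totals alone (0.13) and in the 3 fits of FPKM (adjusted p between 0.0205 and 0.0461).

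**Figure D5:**
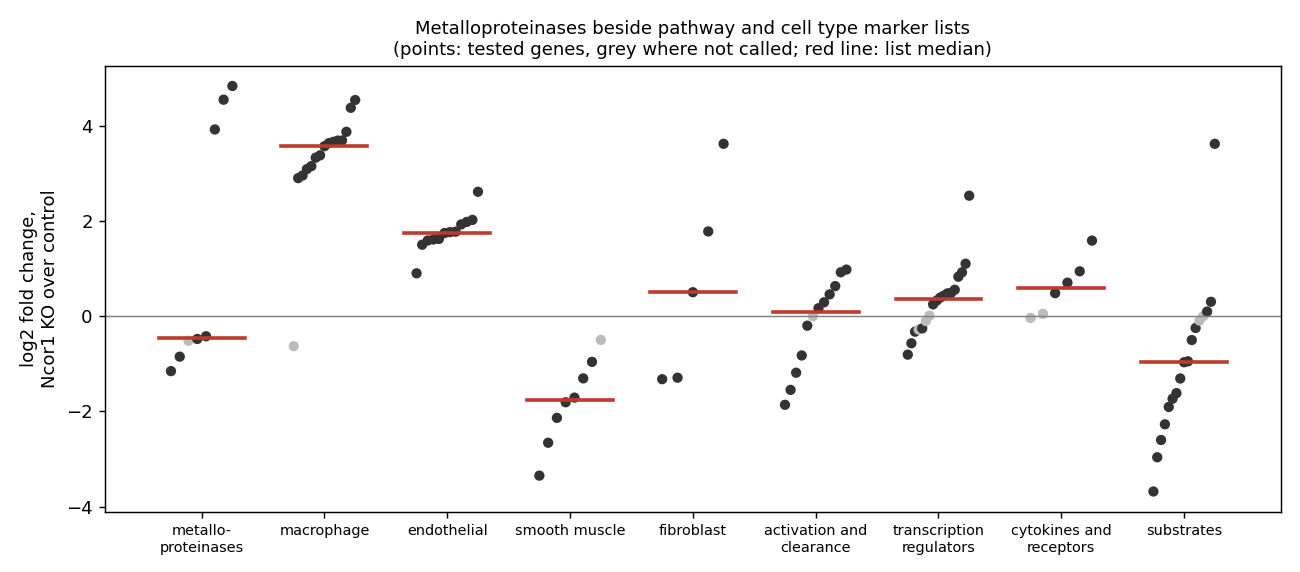
Log2 fold change, Ncor1 knockout over control, of the tested metalloproteinase members and of the tested genes of 8 other lists (points, grey where not called; red line: list median). Mmp3, Mmp12 and Mmp13 lie at 3.92 to 4.84, beside macrophage markers called between 2.90 and 4.54, while the 4 called lower members lie between -1.15 and -0.42.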

How the data were processed

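Reads were aligned with HISAT2 2.0 and the genome build was mm9, per the submitters' processing notes. Sources used here name no read counter, annotation or strand setting. Raw counts, 1 row per gene symbol, were deposited by the authors. FPKM values were also deposited and equal those counts over library total and gene length (13142 genes, relative spread at most 4.39e-06).

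Of 23349 genes with a count, 13323 passed edgeR's filterByExpr (minimum count 10). In edgeR 4.0.16 (R 4.3.3), TMM factors and the quasi-likelihood test with robust estimation gave log2 fold changes and two-sided p-values, Benjamini-Hochberg adjusted, called under 0.05. Dividing a log2 fold change by the square root of its F statistic gave its SE. No library was a copy of another (chi-square per degree of freedom 1.38 to 1.84 within groups). The check does not tell technical from biological replicates. The steps were tested on simulated data.

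Alternatives were DESeq2 size factors, upper-quartile factors, library totals alone, no filter, 1 CPM or more in 3 libraries, DESeq2 1.42.0 with its Wald test, limma-voom (limma 3.58.1), no robust estimation, the replicate block, limma-trend on log2(FPKM + 1), with and without a minimum FPKM of 1 in 3 libraries, and on log2(FPKM + 0.1) with it, and each library left out. Exact intervals of count ratios use 95% confidence. The members and lists were chosen with earlier results of these data known. Named genes were all members, Ncor1, other family genes with at least 30 counts, tested inhibitors, the 4 called genes with the smallest p in each pathway list and the 3 most abundant markers per list. Named outside this rule, after their values were seen, were the AP-1 subunits, Runx2, Egr1, Ets2, Spi1, the genes flanking the cluster, Mmp1a, Mmp1b, Mmp7, Mmp8, Mmp20, Timp4, A2m, Il1a, Il1b, Tnf, Furin, Pcsk7, Plg, Lamb1, Lamc1, Col4a1, Col4a2, Cd14, Mrc1, Des, Myh11, Dpt, Pdgfra, Ly6a, Mpo and Elane. The values of 1 gene that this rule names are not reported here. The gene annotation at hand is of another build than mm9, so it gave gene order and promoter sequence only.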

Additional observations from a re-analysis of the deposited data

How the results depend on the processing

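Under 18 alternatives the 8 tested members and Ncor1 gave the direction and the side of the threshold reported above in all 160 fits that held them, and 0 values reversed. Members called were 3 higher and 4 lower under each alternative that left out a library. Over all genes, leaving out a library gave 3224 to 3381 higher and 3186 to 3342 lower, library totals alone gave 5299 higher, and the FPKM fits gave 2004 (pseudocount 1), 1987 (0.1) and 2130 (no filter) lower. Of the lists, inhibitors had 2 higher with library totals and in the 3 FPKM fits, regulators had 2 lower with library totals, cytokines had 1 lower without the low-count filter, and macrophage markers had 0 to 1 lower when a library was left out. With the replicate block 3509 genes were higher and 3486 lower, the members again 3 and 4. The labels do not say that a number marks shared material. Deviations of libraries sharing a number correlated at 0.00829 to 0.03, each library's best match. Values this small neither show nor exclude shared material. Depth limits Mmp9, Mmp10 and the control levels of Mmp3 and Mmp13, which rest on at most 3 counts per library.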
